A study of Mus musculus with 24 samples.

Results

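Zyx, Actn1, Actb, Tpm2, Tmsb4x, Tagln2, Mylk, Smtn, Aif1l and Myo10 encode proteins of actin stress fibres, of focal adhesions and of the actin structures that feed or replace them. They are 10 of the 8315 genes named on the arrays and were read by 14 of the 24157 features. Actb had 3 features, Actn1 and Myo10 had 2 each, and the other members had 1 each. The members were taken by symbol, and they were proposed from changes already seen on these arrays at day 1, at day 7 and between late and early days. Their values in those comparisons are therefore a description, given with no test.

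A stress fibre is a bundle of actin filaments cross-linked by alpha-actinin, covered by tropomyosin and pulled by non-muscle myosin II, whose light chain is phosphorylated by myosin light chain kinase. Its ends are anchored in focal adhesions, plaques of integrins, talin, vinculin and zyxin that hold a cell to its matrix. Cells spread on stiff plastic are known for thick stress fibres and large adhesions, and cells on a soft basement membrane gel usually show fewer of both. Beta-actin, the building block, is held as a free monomer by thymosin beta 4 until it is needed.

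The cells were HBC-3, 1 mouse hepatoblast line that can take on features of hepatocytes or bile duct cells, differentiated on Matrigel, a basement membrane gel. Days 1, 2, 3, 4, 5, 6 and 7 of differentiation were each set against day 0, the undifferentiated HBC-3 control, with 3 arrays a day lettered A, B and C and 24 in all. Per the labels' protocols, undifferentiated cells had their STON+ feeder layer removed with trypsin and were replated on plastic, and RNA was amplified before labelling. Every array carried Cy3-labelled undifferentiated HBC-3 RNA as the common reference, so that on the day 0 arrays both channels held undifferentiated cells. What the letters stand for is not given in the sources used here. No source used here says whether the 3 arrays of 1 day are separate cultures. The p-values therefore reflect array-to-array spread, possibly technical, and 3 arrays a day limit the precision.

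All values below are log2 ratios of sample over reference after each array was centred on its median, and errors are standard errors of the limma fit unless given as SD. Base 2 and the sample as numerator are the likely reading and are not stated with the deposited table. The labels put the reference in Cy3 on every array, so the direction was kept, although day 0 arrays A and C correlated at -0.343 over all features and day 0 array A with day 3 array B at -0.504. The C arrays of days 4 to 7 stood apart: they correlated at 0.808 to 0.967 with each other, against 0.468 to 0.624 with the other arrays of the same day, where A and B correlated at 0.519 to 0.779 with each other. The members' values on these C arrays are given apart, while a day 7 or late change includes them unless it is said to be without them. A log ratio carries no level, so no gene's abundance is set against another's, and in bulk RNA fewer cells of a type and less RNA per cell cannot be told apart. Of 16 hepatoblast and hepatocyte markers 4 could be tested, and H19 at 3.34 ± 0.84, Afp at 1.93 ± 0.69 and Igf2 at 1.80 ± 0.59 rose at day 7 (adjusted p = 0.00634, 0.0427 and 0.0281, limma). Apob was also tested, stood at -0.38 ± 0.18 at day 7 and did not pass. H19 passed whichever single array of days 0 and 7 was left out, Afp failed without any day 0 array or day 7 array B or C, and Igf2 failed without any day 0 array or day 7 array B. With the signs of all day 0 arrays turned, H19 passed at 3.29, and Afp (0.78) and Igf2 (1.21) did not.

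Promoter windows are shown for the members that hold the letters CATTCC, the core bound by TEAD factors, because these factors and the serum response factor are textbook regulators of actin genes. The windows come from RefSeq (GRCm38.p6), run from 250 bases before to 50 bases after a gene's start and cover 9 of the 10 members in 10 entries. Actb had no entry, so its promoter was not searched for either motif. Capitals mark CATTCC or its reverse complement GGAATG, read 5′ to 3′ on the gene's strand.
Tagln2, chr1:172500098-172500201, plus strand: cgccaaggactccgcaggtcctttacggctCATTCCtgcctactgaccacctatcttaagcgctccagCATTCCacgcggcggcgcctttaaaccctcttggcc
Smtn, chr11:3539479-3539542, minus strand: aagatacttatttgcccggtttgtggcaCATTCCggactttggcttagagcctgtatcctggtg
Mylk, chr16:34784762-34784827, plus strand: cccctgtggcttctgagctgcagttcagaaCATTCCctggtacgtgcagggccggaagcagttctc
Myo10, chr15:25753109-25753174, plus strand: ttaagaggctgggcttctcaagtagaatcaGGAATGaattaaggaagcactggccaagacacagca
The letters lie 118 and 80 bases before the start of Tagln2, and 222, 158 and 67 bases before those of Smtn, Mylk and 1 of the Myo10 starts. They occur, on either strand, in 4 of the 10 entries of these genes and in 14.66% of all 32851 entries. The CArG box, the letters known for binding the serum response factor, occurs on either strand in 0 of the 10 entries and in 1.63% of all entries. A match is a string of letters and not a bound site, and its absence speaks only of these windows.

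The 10 genes did not follow 1 common course. Transcripts of Zyx, Aif1l, Actn1, Actb, Tpm2 and Smtn were already low at day 1, those of Tmsb4x and Tagln2 were low only later, those of Mylk were higher from day 2 on except on the C arrays of days 4 and 5, and those of Myo10 were higher at the end of the week. At day 1, 5 of the 10 members lay past an adjusted p of 0.05, all lower (Zyx, Aif1l, Actn1, Tpm2 and Smtn), where 10.9% of all 10639 units passed, 5.92% lower and 4.99% higher. At day 7, 8 lay past it lower and 2 higher (Mylk and Myo10), where 27.6% of units passed, 13.0% lower and 14.6% higher. The members were chosen on these contrasts, which share the day 0 arrays, so nothing is read from these counts.

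**Figure D1:**
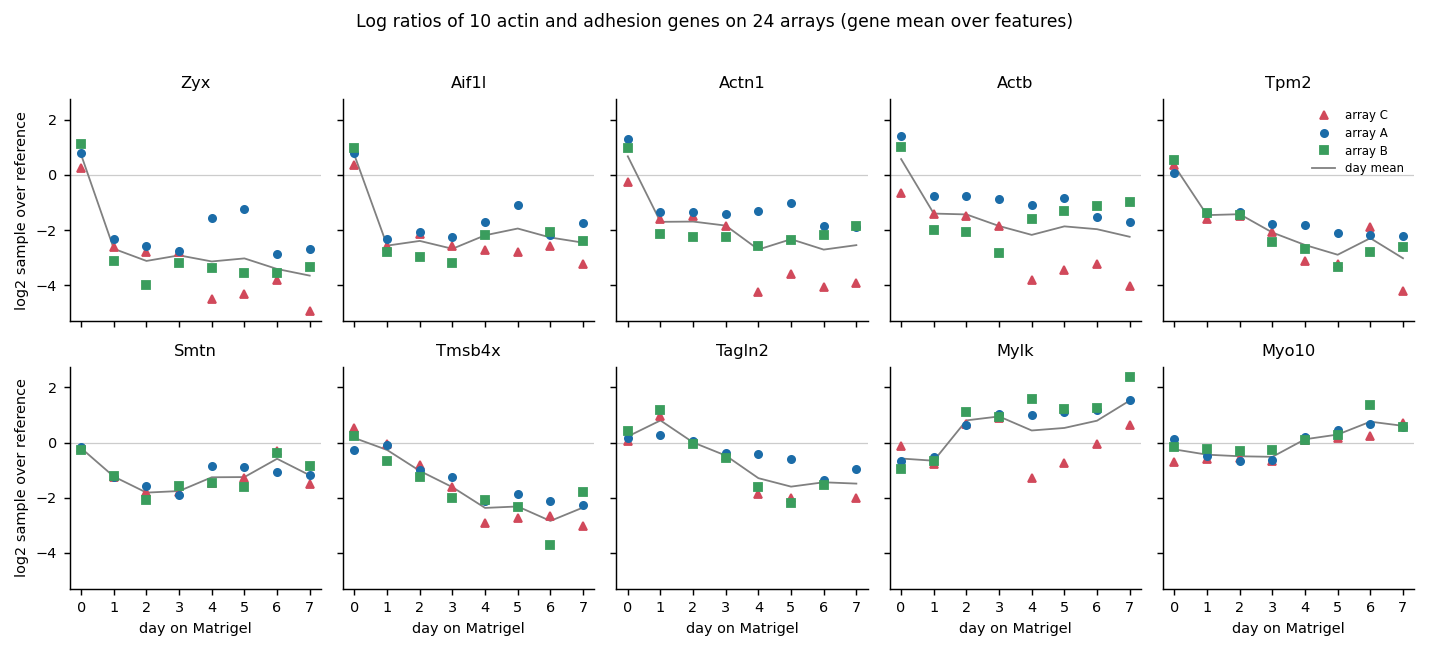
Log2 ratio of sample over reference (vertical axis) against day on Matrigel (horizontal axis) for the 10 genes, 1 point per array, with the C arrays as triangles, A as circles and B as squares, and the day mean as a line. Zyx and Aif1l lie below all 3 day 0 arrays on every later array with a value, and Mylk lies above 0 on the A and B arrays of days 4 to 7 and below 0 on the C arrays of days 4, 5 and 6.

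Zyx encodes zyxin, a LIM protein that moves between focal adhesions and strained stress fibres and recruits actin-assembly factors to them. At day 0 its log ratio was 0.79, 1.14 and 0.26 on arrays A, B and C. Day 1 gave -2.32, -3.11 and -2.60, day 2 gave -2.59, -3.99 and -2.78, and day 3 gave -2.75, -3.19 and -2.80. On days 4, 5, 6 and 7 it was -4.50, -4.31, -3.81 and -4.93 on the C arrays, against -1.54, -1.23, -2.86 and -2.70 on the A arrays and -3.37, -3.54, -3.57 and -3.32 on the B arrays. All 21 arrays of days 1 to 7 lay below all 3 day 0 arrays, and on each of days 4 to 7 the C array was the lowest and the A array the highest. The change was -3.41 ± 0.70 at day 1 and -4.38 ± 0.70 at day 7, or -3.74 ± 0.59 at day 7 without the late C arrays. Turning the sign of all day 0 arrays made it -1.95 at day 1 and -2.92 at day 7.

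Aif1l encodes a calcium-binding relative of allograft inflammatory factor 1 that binds and bundles actin filaments. On arrays A, B and C the log ratios were 0.80, 0.99 and 0.36 for day 0, -2.31, -2.79 and -2.59 for day 1, -2.07, -2.96 and -2.15 for day 2, and -2.24, -3.21 and -2.58 for day 3. The C arrays of days 4, 5, 6 and 7 gave -2.71, -2.80, -2.58 and -3.22, against -1.69, -1.08, -2.16 and -1.75 on the A arrays. The B arrays of days 4, 6 and 7 read -2.16, -2.06 and -2.40, and the day 5 B array gave no value. No array after day 0 came near the day 0 arrays. The change was -3.28 ± 0.42 at day 1 and -3.17 ± 0.42 at day 7, or -2.79 ± 0.32 at day 7 without the late C arrays. With the day 0 signs turned these were -1.85 and -1.74.

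Actn1 encodes alpha-actinin 1, which cross-links actin filaments and ties them to adhesions. Averaged over its 2 features, it stood at 1.30 on array A, 0.98 on B and -0.25 on C of day 0, and between -2.25 and -1.33 on the 9 arrays of days 1 to 3. On days 4, 5, 6 and 7 it was -4.25, -3.61, -4.07 and -3.91 on the C arrays, against -1.29, -1.02, -1.86 and -1.89 on the A arrays and -2.58, -2.36, -2.19 and -1.84 on the B arrays. Every array after day 0 was below every day 0 array, and the C arrays of days 4 to 7 did not overlap any other array. The change was -2.38 ± 0.73 at day 1 and -3.22 ± 0.73 at day 7. It was -1.02 and -1.87 with the day 0 signs turned, and -2.54 ± 0.48 at day 7 without the late C arrays.

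The features of Actn1 differed. Over the 18 arrays where both gave a value, they differed by up to 2.55 and correlated at 0.782, a description across arrays that share the reference RNA and the time course. The feature with a value on all 24 arrays read -2.56 and -1.96 on the A arrays of days 4 and 5, where the other read -0.02 and -0.08. On the B arrays of days 4 and 5 the complete feature read -2.58 and -2.36 and the other gave no value. The gene means of the A and B arrays of these days therefore rest on different features. The other feature also gave no value on any C array of days 4 to 7. Both features were lower on every later array with a value than on the A and B arrays of day 0, but the incomplete one overlapped day 0 array C on the A arrays of days 4 and 5. Taken alone, the complete feature changed by -2.45 ± 0.56 at day 1 and by -3.07 ± 0.56 at day 7.

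Actb encodes beta-actin, the subunit of the filaments themselves and a frequent internal standard in expression work. Its 2 features with values on every array list the same clone and agreed within 0.193. For day 0 their mean was 1.40 on array A, 1.0 on B and -0.67 on C, although both channels held undifferentiated cells there. In the same letter order day 1 gave -1.10, -2.0 and -1.42, day 2 gave -1.19, -2.05 and -1.48, and day 3 gave -1.31, -2.85 and -1.85. On days 4, 5, 6 and 7 it was -3.81, -3.45, -3.22 and -4.04 on the C arrays, against -1.10, -0.83, -1.54 and -1.71 on the A arrays and -1.60, -1.31, -1.14 and -1.42 on the B arrays. The day 0 arrays thus spanned 0 and differed by more than the arrays of day 1, and day 0 array C lay only just above the nearest later array, day 5 array A.

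The third Actb feature, with a value on 4 arrays, read -0.12, 0.10 and 0.05 on the A arrays of days 1, 2 and 3 and -0.10 on the day 7 B array. It lay 0.912 to 1.41 above the others there, and it raised the gene's mean on these arrays alone, to -0.78, -0.76, -0.86 and -0.98. On the gene mean the change was -1.98 ± 0.84 at day 1 and -2.82 ± 0.84 at day 7, or -1.92 ± 0.58 at day 7 without the late C arrays. These values rest on the day 0 arrays: with their signs turned they were -0.82 and -1.67. Against the common reference channel in place of the day 0 arrays they were -1.40 and -2.24.

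**Figure D2:**
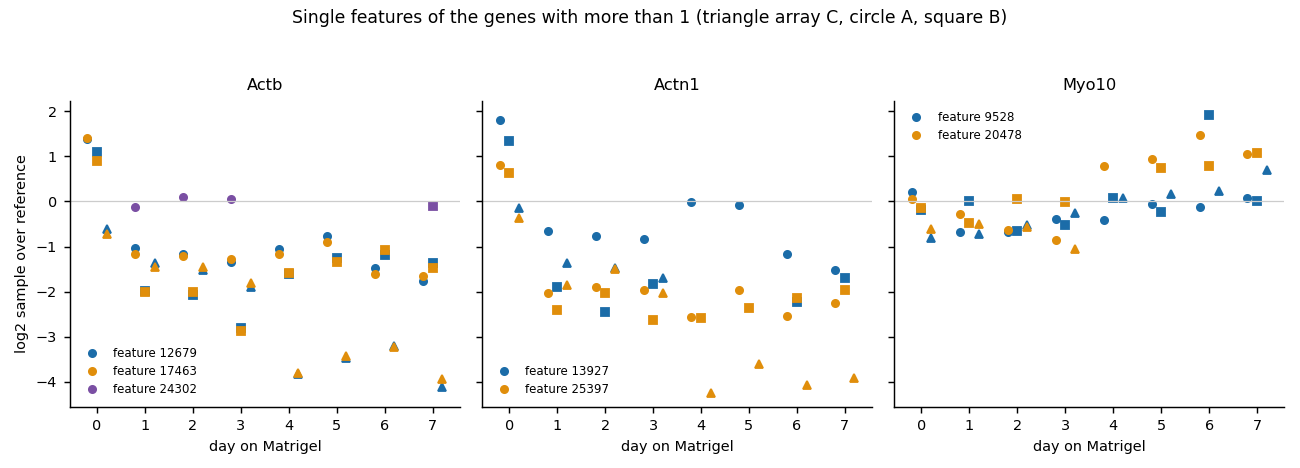
Log2 ratio of sample over reference (vertical axis) against day on Matrigel (horizontal axis) for each feature of Actb, Actn1 and Myo10, coloured by feature, with triangles for C, circles for A and squares for B arrays. The third Actb feature lies 0.912 to 1.41 above the other 2 on its 4 arrays, and neither Actn1 feature 13927 nor Myo10 feature 20478 has a value on a C array of days 4 to 7.

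Tpm2 encodes beta-tropomyosin, a coiled coil that lies along actin filaments and governs the access of myosin. On arrays A, B and C the ratio was 0.08, 0.54 and 0.37 for day 0, -1.39, -1.39 and -1.59 for day 1, -1.33, -1.44 and -1.50 for day 2, and -1.78, -2.43 and -2.06 for day 3. The C arrays of days 4, 5, 6 and 7 gave -3.11, -3.23, -1.90 and -4.23, against -1.82, -2.12, -2.18 and -2.22 on the A arrays and -2.69, -3.32, -2.80 and -2.62 on the B arrays. Every array after day 0 lay below day 0, and every array of days 4 to 7 lay below those of days 1 and 2 but not of day 3, with the day 7 C array lowest. The change was -1.79 ± 0.42 at day 1 and -3.35 ± 0.42 at day 7, or -2.75 ± 0.32 at day 7 without the late C arrays.

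Smtn encodes smoothelin, a protein of contractile stress fibres best known from smooth muscle. For day 0 it was -0.15, -0.28 and -0.19, for day 1 -1.26, -1.21 and -1.24, and its day mean was lowest at day 2, with -1.56, -2.10 and -1.79, followed by -1.90, -1.60 and -1.78 on day 3. The C arrays of days 4, 5, 6 and 7 gave -1.46, -1.27, -0.32 and -1.52, against -0.84, -0.89, -1.07 and -1.18 on the A arrays and -1.48, -1.60, -0.38 and -0.86 on the B arrays. The day 1 arrays lay close together and apart from day 0, the later ones more widely, with day 6 array C reaching nearest to day 0. Days 5 to 7 were 0.59 ± 0.14 above days 1 to 3. Its change was -1.03 ± 0.25 at day 1 and -0.98 ± 0.25 at day 7, or -0.82 ± 0.26 at day 7 without the late C arrays, and turning the day 0 signs gave -1.44 and -1.39.

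Tmsb4x and Tagln2 had later courses. Tmsb4x encodes thymosin beta 4, which sequesters actin monomers. It read -0.28, 0.25 and 0.52 at day 0 and -0.09, -0.66 and -0.07 at day 1 on arrays A, B and C, so these days overlapped. At days 2 and 3 it read -1.0, -1.26 and -0.82, then -1.25, -2.01 and -1.60. On days 4, 5, 6 and 7 it was -2.93, -2.75, -2.68 and -3.01 on the C arrays, against -2.11, -1.86, -2.13 and -2.28 on the A arrays and -2.09, -2.35, -3.72 and -1.78 on the B arrays. From day 2 on every array was below those of days 0 and 1. The change was -0.44 ± 0.38 at day 1 and -2.52 ± 0.38 at day 7, or -2.20 ± 0.37 at day 7 without the late C arrays.

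Tagln2 encodes transgelin 2, a small actin-bundling relative of the smooth muscle protein SM22. It was 0.18, 0.41 and 0.07 at day 0 and 0.26, 1.18 and 0.96 at day 1 on arrays A, B and C, so that 2 of the day 1 arrays were above all of day 0. At day 2 arrays A and B read 0.07 and -0.06, and at day 3 the 3 arrays read -0.37, -0.57 and -0.48, all below day 0. On days 4 and 5 it was -1.88 and -2.02 on the C arrays, against -0.40 and -0.60 on the A arrays and -1.60 and -2.19 on the B arrays. At day 6 arrays A and B read -1.35 and -1.53, and at day 7 array C read -2.03, against -0.95 on array A, with no value on the day 2 C, day 6 C and day 7 B arrays. The change was 0.58 ± 0.41 at day 1 and -1.71 ± 0.46 at day 7, and -1.17 at day 7 without the C array and -2.25 without the A array of that day. The late days stood at -1.62 ± 0.27 against days 1 to 3.

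Mylk and Myo10 ran the other way. Mylk encodes myosin light chain kinase, which starts the contraction of smooth muscle and of stress fibres. It was -0.66, -0.95 and -0.13 at day 0 and -0.54, -0.66 and -0.78 at day 1 on arrays A, B and C. At day 2 it was 0.64, 1.11 and 0.66, and at day 3 it was 1.02, 0.93 and 0.89, above all arrays of days 0 and 1. On days 4, 5, 6 and 7 it was -1.29, -0.76, -0.06 and 0.64 on the C arrays, against 1.01, 1.11, 1.20 and 1.54 on the A arrays and 1.60, 1.23, 1.24 and 2.38 on the B arrays. Of the A and B arrays of days 4 to 7, all but day 4 array A lay above every array of days 2 and 3, while the C arrays of days 4 and 5 lay below and within the range of the day 0 arrays. The change was -0.08 ± 0.59 at day 1 and 2.10 ± 0.59 at day 7, or 2.54 ± 0.27 at day 7 without the late C arrays, and 0.94 with the day 0 signs turned.

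Myo10 encodes an unconventional myosin that walks to the tips of filopodia. Its mean over 2 features was 0.13, -0.16 and -0.71 at day 0 and lay between -0.66 and -0.24 on the 9 arrays of days 1 to 3. On days 4, 5 and 6 it was 0.08, 0.17 and 0.24 on the C arrays, against 0.19, 0.44 and 0.68 on the A arrays and 0.08, 0.26 and 1.36 on the B arrays. At day 7 it was 0.56, 0.55 and 0.70 on arrays A, B and C, above every array of days 0 to 3. The change was -0.19 ± 0.25 at day 1 and 0.85 ± 0.25 at day 7, or 0.81 ± 0.25 at day 7 without the late C arrays, and days 5 to 7 were 1.04 ± 0.14 above days 1 to 3. The features differed here too, by up to 1.59 and with opposite signs on 6 of 19 shared arrays. The feature present on all arrays changed by 0.53 ± 0.38 at day 7 and by 0.79 ± 0.22 between late and early days. The other read 0.75 to 1.47 on the A and B arrays of days 4 to 7 where it had a value, and it had none on a late C array. Turning the day 0 signs made the gene's day 7 change 0.36.

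Between late and early days, days 5 to 7 against days 1 to 3, 2 members lay past the threshold higher (Smtn and Myo10) and 3 lower (Tpm2, Tmsb4x and Tagln2), where 7.74% of all units passed, 3.51% higher and 4.23% lower. The members were chosen on this contrast too, so nothing is read from these counts. Tpm2 differed by -1.08 ± 0.24 and Tmsb4x by -1.53 ± 0.22. For the others the late days were -0.79 ± 0.42 for Actn1, -0.46 ± 0.41 for Zyx, -0.46 ± 0.49 for Actb, 0.32 ± 0.25 for Aif1l and 0.58 ± 0.34 for Mylk. Deviations of same-letter arrays from their day means correlated at 0.223 to 0.461 within days 1 to 3 and 0.142 to 0.926 within days 4 to 7. The fit treats the arrays as independent, so standard errors and p-values of this contrast, here and above, may be too small. The direction of Zyx, Actn1 and Actb depends on the scaling of the arrays. With every array scaled to 1 spread, Zyx stood at 0.73, Actn1 at 0.07 and Actb at 0.26, and Aif1l at 1.23. Without the C arrays of days 4 to 7, Zyx stood at 0.03 ± 0.34, Actn1 at -0.12 ± 0.27, Actb at 0.31 ± 0.33, Aif1l at 0.79 ± 0.20 and Mylk at 1.09 ± 0.15. Then 4 members lay past the threshold higher and 3 lower, where 948 units passed, 494 higher and 454 lower. Nothing is read from this count either.

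The C arrays of days 4 to 7 were compared with the A and B arrays of the same days in a model with a mean for each day and 1 term for these C arrays. These C arrays also enter the day 7 and late means from which the members were proposed, so the members' differences are a description, given with no test. On the C arrays Actb differed by -2.35 ± 0.36, Actn1 by -2.08 ± 0.30, Mylk by -1.78 ± 0.20 and Zyx by -1.62 ± 0.39. Each of these was below both other arrays on 4 of 4 days. The incomplete Actn1 feature had no value on these C arrays, and the complete feature alone differed by -1.66 ± 0.20. Aif1l, at -0.99 ± 0.23, was below both on the 3 days with all letters, and Tagln2, at -0.84 ± 0.31, on 1 of 2. These 6 of 10 members lay past an adjusted p of 0.05, all lower, where 49.9% of all 10621 units passed and 26.5% passed lower, and nothing is read from this count. With the replicate letter as a block Tagln2, at -0.80, no longer lay past it. Tpm2 stood at -0.65 ± 0.28, Tmsb4x at -0.55 ± 0.25, Myo10 at -0.22 ± 0.17 and Smtn at -0.10 ± 0.18. The sign for Myo10 depends on its features. The Myo10 feature with a value on every array stood at 0.14 ± 0.28, with the C array above both others on 3 of 4 days. The other Myo10 feature had no value on these C arrays. The deviations of same-letter arrays from their day means correlated at 0.142 to 0.926 within days 4 to 7, while the fit treats the arrays as independent, so p-values of this contrast may be too small.

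These differences depend on the scaling as well. The SD of an array's log ratios was 1.064 for day 7 array C and as low as 0.332 for day 0 array C. With arrays scaled to 1 spread, Mylk (-1.59), Actb (-1.33) and Actn1 (-1.01) stayed past the threshold, and Zyx (-0.50), Tagln2 (-0.34) and Aif1l (-0.22) did not. After quantile normalization Mylk alone of the members lay past it, at -1.50, while Actb stood at -1.26, Actn1 at -1.01, Zyx at -0.44, Tagln2 at -0.18 and Aif1l at -0.04. Tpm2, Tmsb4x and Smtn changed sign under both scalings, to 0.13, 0.12 and 0.18 when scaled and 0.34, 0.39 and 0.31 after quantile normalization. Tagln2 was also no longer past it without the A or C array of day 4, 5 or 7, at -0.96 to -0.62. Tpm2 lay past it without day 4, 5 or 6 array B or without day 6 array C (-1.06 to -0.72), and Tmsb4x without day 6 array B (-0.76) or C (-0.82).

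**Figure D3:**
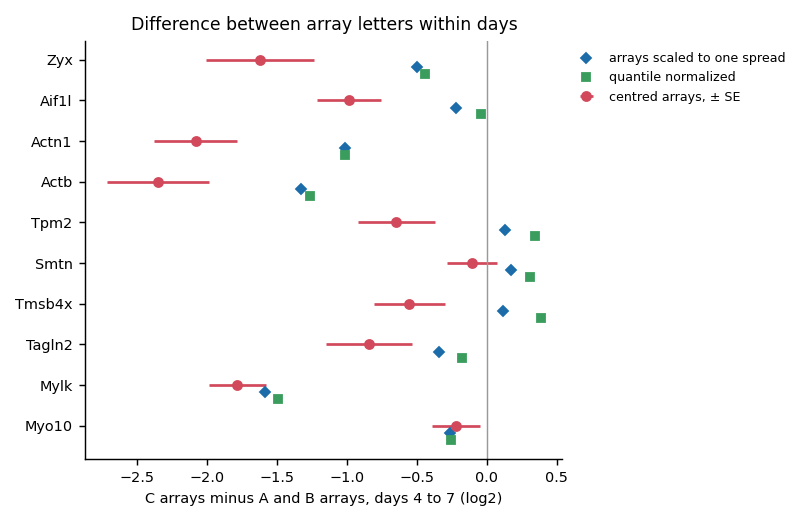
Difference of the C arrays from the A and B arrays within days 4 to 7 (horizontal axis, log2), 1 line per gene, for median-centred arrays (circles with standard errors), arrays scaled to 1 spread (diamonds) and quantile-normalized arrays (squares). Mylk lies between -1.78 and -1.50 under the 3 scalings, while Tpm2, Tmsb4x and Smtn cross 0. For Actn1 and Myo10, 1 feature has no value on these C arrays, so that the other alone gives their C values.

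Among focal adhesion and LIM genes other than the members, more fell than rose. Of 27 measured of 46 listed, 7 fell and 2 rose at day 1 (median -0.459, against 0.0349 over all units, limma, adjusted p under 0.05), where 5.92% of all units fell. At day 7, 11 fell and 2 rose (median -0.554, against -0.00907 over all units), where 13.0% of all units fell and 14.6% rose, and without the late C arrays 10 fell and 3 rose. Bcar1, the adhesion scaffold p130Cas, fell by 1.49 ± 0.26 at day 1 (adjusted p = 0.00132, limma) and still passed when any 1 array of days 0 and 1 was left out. Lpp, a LIM protein of the zyxin family, fell by 1.47 ± 0.38, Vcl, the talin- and actin-binding protein vinculin, by 1.41 ± 0.45, and Pdlim5, which binds alpha-actinin, by 1.38 ± 0.36. With 1 array left out, Lpp and Pdlim5 passed in 2 of 6 fits and Vcl in 1. Tln2, a talin, and Fblim1, which links filamin to adhesions, were the 2 that rose at day 1. At day 7 the actin cross-linker filamin A, Flna, fell by 2.03 ± 0.39 (adjusted p = 0.000899, limma), and Tgfb1i1, a LIM protein of the paxillin family, fell by 1.60 ± 0.36. Lpp fell by 1.51 ± 0.38 and Vcl by 1.46 ± 0.45 at that day, but Vcl failed with arrays scaled (-1.03), after quantile normalization (-1.06) and without day 0 array A or B or day 7 array C.

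The counts of this list depend on single arrays. Without day 0 array A, 2 genes of the list passed at day 1 and 7 at day 7, and without day 0 array B 2 and 6. Without day 1 array A, B or C the day 1 counts were 3, 3 and 2, and without day 7 array C the day 7 count was 8. When all day 0 signs were turned, Vcl, Pdlim5 and Tln2 passed at day 1 and 5 genes at day 7 (Flna, Lpp, Vcl, Pdlim5 and Fblim1). Bcar1 then stood at -0.34 at day 1 and Tgfb1i1 at -0.91 at day 7, and neither passed. With arrays scaled to 1 spread 17 passed at day 1, 14 of them lower, while the count over all units rose too, from 1161 to 3259, 1568 of them lower. Flna and Lpp passed at day 7 in all 6 fits that left out 1 array of days 0 and 7.

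Among actin bundle, tropomyosin and myosin II genes, 16 of 39 listed were measured, and 2 passed at day 1, both lower (median -0.636), a share near the 10.9% of all units. These were Fhl1, a LIM protein of striated muscle and stress fibres, at -2.86 ± 0.71, and Myl12b, a regulatory light chain of non-muscle myosin II, at -1.44 ± 0.38 (adjusted p = 0.0135 and 0.0181, limma). At day 7, 4 fell and 2 rose (median -0.712), where 27.6% of all units passed, and without the late C arrays 5 fell and 0 rose in limma (6 and 2 at an unadjusted p under 0.05). The 6 that passed on all arrays included Myl6, an essential light chain of myosin II, at -1.82 ± 0.35, Tpm1, another tropomyosin, at -1.69 ± 0.53, and Synpo, the bundling protein synaptopodin, at 1.81 ± 0.61. Myl6 passed in all 6 fits that left out 1 array. Fhl1 passed in 3 of 6 such fits at day 1, Myl12b and, at day 7, Synpo in 2, and Tpm1 in 4, failing without day 0 or day 7 array C. Tpm1 also failed with arrays scaled, at -1.05, and Synpo failed without the late C arrays, at 1.63, and with the day 0 signs turned, at 0.42. With these signs turned Fhl1, at -1.24, and Myl12b, at -1.12, failed at day 1, while Myl6 and Tpm1 passed at day 7. Of this list 0 passed at day 1 in limma without day 0 array A, day 0 array B or day 1 array B (5, 5 and 3 at an unadjusted p under 0.05), and 1 without day 1 array C. At day 7 the counts were 3 and 2 when array A or B of day 0 was left out, and 3 and 1 when array B or C of day 7 was. Leaving out all C arrays of days 4 to 7, 6 passed at day 1, and with the replicate letter as a block 5. The count over all units was then 2756 and 1546, against 1161 in the main fit.

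Genes of actin assembly and turnover had medians above 0. Of 27 measured of 50 listed, 2 rose and 1 fell at day 1 (median 0.171), and 5 rose and 2 fell at day 7 (median 0.11), shares near the 10.9% and 27.6% of all units that passed. Of 6 measured subunits of the Arp2/3 complex, which nucleates branched filaments, 1 passed at day 1 and 3 at day 7. These subunits were not planned as a group, so nothing is read from these counts. Arpc1b rose by 1.25 ± 0.37 at day 1 (adjusted p = 0.0359), and by 1.11 ± 0.37 (0.0315) at day 7, when Arpc1a rose by 1.75 ± 0.31 (0.000428) and Arpc2 by 1.27 ± 0.45 (0.042). Arpc4, Arpc5 and Arpc5l stood at -0.44, 0.11 and 0.09 at day 7 and did not pass. Wasl, the N-WASP activator of that complex, rose by 1.21 ± 0.31 at day 7, and Fmnl2, a formin, by 1.37 ± 0.25 at day 1 and 1.26 ± 0.25 at day 7. Capza1, a capping protein, fell by 1.21 ± 0.23 at day 1. Arpc1a and Fmnl2 passed in all 6 fits without 1 array, Wasl failed without day 7 array C, and Arpc2 failed without any day 0 array or without day 7 array C. Arpc1b passed in 1 of 6 such fits at day 1 and in 2 at day 7. In limma 0 genes of this list passed at day 7 with the day 0 signs turned (5 at an unadjusted p under 0.05), and the list's median was then -0.0183 at day 1 and -0.165 at day 7. Fmnl2, at 0.46, and Capza1, at -0.60, then failed at day 1.

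**Figure D4:**
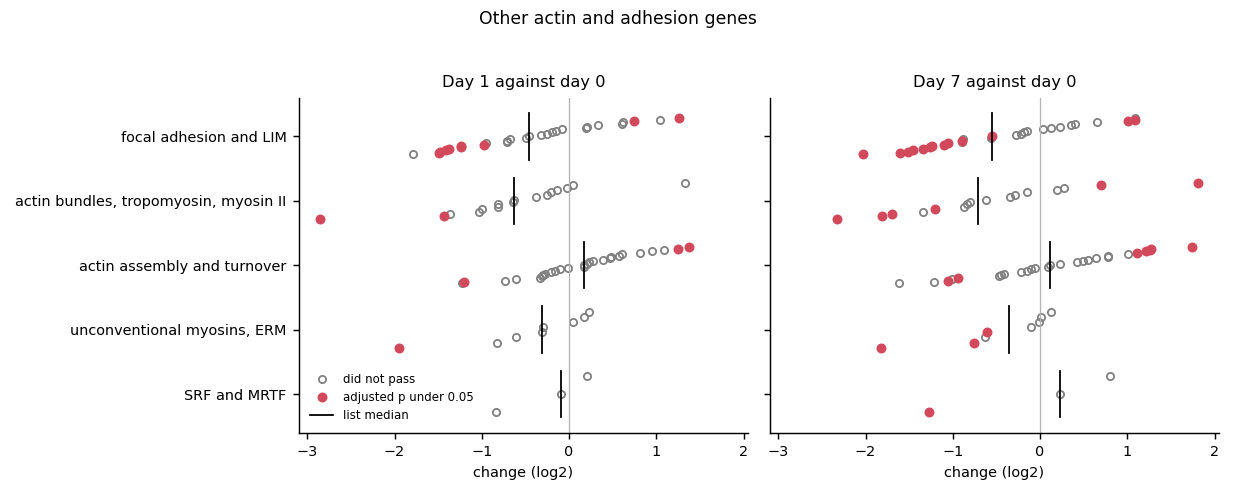
Change against day 0 (horizontal axes, log2) at day 1 and day 7 of the genes of 5 lists, members left out, 1 point per gene, filled where the adjusted p was under 0.05, with the list's median as a bar. The medians of the adhesion and bundle lists lie at -0.459 and -0.636 at day 1, that of the assembly list at 0.171.

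Smaller lists held few measured genes. Of 8 measured unconventional myosin and ERM genes, 1 passed at day 1 and 3 at day 7, all lower. Of all units 10.9% passed at day 1 and 27.6% at day 7. Myo1c, a membrane-linked myosin, fell by 1.95 ± 0.31 at day 1 (adjusted p = 0.00069, limma) and 1.82 ± 0.31 at day 7. Nf2, the ERM relative merlin, fell by 0.76 ± 0.20 at day 7, when Myo1e stood at -0.61 ± 0.21. Myo1e passed in 2 of 6 fits that left out 1 array. It failed with the day 0 signs turned and without the late C arrays. Of 3 measured genes of the serum response factor and its cofactors, Mrtfa, a cofactor released when actin monomers are used up, fell by 1.28 ± 0.34 at day 7 (adjusted p = 0.00873, limma) and failed without day 0 array B. With the day 0 signs turned, Mrtfa was at 0.0022 and Nf2 at -0.51, and neither passed. Myo1c passed at both days with these signs turned and whichever array was left out.

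Markers of other cells moved too. Of 10 measured fibroblast markers 3 passed at day 1 (median 1.12) and 3 at day 7 (median 0.759), all higher. Of all units 10.9% passed at day 1 and 27.6% at day 7, so the day 7 share is near that of all units. Col5a2 (-0.71), Col6a2 (-0.52) and Col5a1 (-0.16) were below 0 at day 7 and did not pass. Between late and early days 3 markers passed lower (Col5a2, Col6a2 and Col5a1) and 1 higher (Dcn). The labels do not say what cell type the feeder layer was. Pdgfrb rose by 2.29 ± 0.45 and Col6a1 by 1.81 ± 0.44 at day 1, and Dcn by 6.06 ± 0.68 at day 7. The mean of these markers was -0.837 to 0.112 on the day 0 arrays and 0.284 to 1.199 on those of days 1 to 3. On days 4 to 7 it was 0.367 to 0.982 on the C arrays, against -0.057 to 0.961 on the A and B arrays. Col6a1 failed without day 0 array A or B or day 1 array C, and Dcn, at 1.65, with the day 0 signs turned. Of 10 smooth muscle and myofibroblast markers 1 could be tested, and it did not pass at day 1 or day 7. At each of these days 1 of 2 measured blood cell markers and 1 of 3 measured duct markers passed, all higher: Hba-a1 and Itga6 at day 1, and Tyrobp and Anxa4 at day 7. With 1 array left out, Hba-a1 passed in 2 of 6 fits and Itga6 in 3, Tyrobp failed without day 0 array B and with the day 0 signs turned, and Anxa4 passed in all 6. The others did not pass: Bicc1 (1.45), Tyrobp (1.30) and Anxa4 (0.62) at day 1, and Bicc1 (1.47), Itga6 (-0.31) and Hba-a1 (-0.01) at day 7. Between late and early days the duct markers parted, with Itga6 lower (-0.84 ± 0.13), Anxa4 higher (0.55 ± 0.13) and Bicc1, at -0.22, not passing. In the comparison of the C arrays of days 4 to 7, 49.9% of all units passed. The hepatoblast markers H19 (-1.79 ± 0.49), Afp (-1.56 ± 0.39) and Igf2 (-1.29 ± 0.33) and the duct marker Bicc1 (-3.14 ± 0.30) were lower there. The endothelial marker Cdh5, the only 1 of 5 listed that could be tested, was higher (1.00 ± 0.19). These 5 passed under both scalings and with any 1 array left out. On these C arrays the hepatocyte marker Apob stood at 0.25 ± 0.12 and did not pass. The duct markers Itga6 (-0.18 ± 0.16) and Anxa4 (0.03 ± 0.15) and the blood cell marker Hba-a1 (0.04 ± 0.26) did not pass either. There the blood cell marker Tyrobp was at 0.90 ± 0.33, and it failed with arrays scaled (0.33), after quantile normalization (0.63) and in 7 of 12 fits without 1 array. Of the 10 fibroblast markers Col6a2 was lower (-1.11 ± 0.25) and Prrx1 stood at 0.63 ± 0.17, and Prrx1 failed under both scalings, with the replicate block and without day 5 array C. The part of these cells in the members' values was not tested.

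On the C arrays of days 4 to 7, 8 of the 27 measured adhesion genes were lower and 5 higher, with Limd1 at -1.71 ± 0.22, Git1 at -1.69 ± 0.19 and Pxn, the scaffold paxillin, at -1.45 ± 0.23. Of the assembly genes 9 were lower and 5 higher, with the filament-severing proteins Cfl1 at -2.02 ± 0.35 and Dstn at -1.95 ± 0.36. These 5 genes passed under both scalings and with any 1 array left out, Cfl1 at -1.28 and Dstn at -1.10 after quantile normalization. The shares called, 13 of 27 and 14 of 27, are near the 49.9% of all units that passed.

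Among the members, courses over the arrays were most alike for Actn1 and Actb (Pearson's correlation 0.947 over 24 arrays) and for Zyx and Aif1l (0.938 over 23), while Mylk stood at -0.25 with Zyx and at 0.014 with Actb. Genes with the course most like 3 members were sought over 5805 genes by Pearson's correlation across arrays, as a description over arrays that share the reference RNA and the day means. For Zyx they were the kinase gene Tnk2 (0.938), the ephrin receptor gene Epha2 (0.934) and the integrin gene Itga3 (0.929) over 24 arrays, Gprc5a (0.926) over 20 and Ctu2 (0.926) over 22. For Actb they were Klf16 (0.936, 23 arrays), Snu13 (0.935), Ccnd2 (0.926) and Nav2 (0.926) over 24, and Wwc1 (0.916) over 21. For Mylk they were Grina (0.89), Psen2 (0.837), Id3 (0.835), Tmem35b (0.83) and Arap1 (0.83), over 24 arrays each.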

How the data were processed

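Dual-colour arrays of HBC-3 cells at days 0 to 7 were read from the deposited value table. The authors deposited log ratios, read as log2 with Cy5 on top because of the dyes in the labels. The base, the scanner, any background correction or normalization, and why cells are empty: none of this is given in the sources used here. Deposited column medians lay between -0.0253 and 0.0295, and 12328 to 22149 features per array had a value. The platform annotation named 13319 features by 1 symbol, 589 by several genes and left 10249 unlisted, and 13290 symbols were updated through Entrez identifiers (GRCm38.p6, names only). Each array was centred on its median, features of a gene were averaged, and 10639 units (5660 genes and 4979 unnamed features) with values on at least 2 arrays of each day were tested.

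Day means were fitted over all 24 arrays by limma (version 3.58.1, under R 4.3.3) using lmFit, then eBayes (2-sided, Benjamini-Hochberg over all units, threshold 0.05), and a second model added the C term for days 4 to 7. That term was planned as a test of the members and is given for them as a description. Letters pair the arrays within days 4 to 7, where all 18 same-letter pairs deviated together, and the fit with the letter as a block was an alternative. The fit was tested on simulated data. The genes named were the 10 members, up to 4 genes past the threshold from each list and comparison, and 5 genes most correlated with Zyx, Actb and Mylk over at least 20 arrays. Some of these are given in counts only, and 1 list is not reported here. Tln2 and Fblim1 at day 1 were named after their values were seen. The members and lists were chosen with earlier results of these data known. Alternatives were scaled and quantile-normalized arrays, values without centring, a value on every array, the replicate block, turned day 0 signs, the reference channel, single features, only the groups compared, and each array left out.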

Additional observations from a re-analysis of the deposited data

Results flagged for a closer look

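For 6 of the 10 genes the term for the C arrays in the limma model over days 4 to 7 lay past an adjusted p of 0.05. The members were proposed from day means that include these arrays, so this is a description and the differences were not tested. The difference (log2) from the A and B arrays of the same days was -2.35 for Actb, -2.08 for Actn1, -1.78 for Mylk, -1.62 for Zyx, -0.99 for Aif1l and -0.84 for Tagln2. For the Actn1 feature with a value on every array it was -1.66, and the other Actn1 feature had no value on these C arrays. Of all units, 49.9% lay past the same threshold. What the letters stand for is not given, so the letter and whatever came with it cannot be told apart. Mylk was the 1 member whose sign differed between letters on days 4 to 6, at -1.29, -0.76 and -0.06 on the C arrays, against 1.01 to 1.60 on the A and B arrays.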

How the results depend on the processing

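Of 790 member values recomputed under other settings, 728 kept their side of the threshold (C arrays) or moved by less than the spread within days, 40 moved by more, 16 lost and 6 gained the threshold on the C arrays, and no called value changed sign. Some of these values could not move, so the 728 do not measure stability. A day difference stays the same with only the groups compared or a value on every array. The day 1 change cannot depend on the late C arrays, and a gene with 1 feature repeats its value for single features. The counts of units called (1161 at day 1, 2940 at day 7, 823 late against early, 5299 on the C arrays) moved more. At day 1 the count was 3259 with arrays scaled, 3127 after quantile normalization, 592 with a value on every array, 515 with day 0 signs turned, 2756 without the C arrays of days 4 to 7 and 3297 with only the groups compared. At day 7 it was 1230 with day 0 signs turned and 1818 with only the groups compared. On the C arrays it was 3018 with arrays scaled and 3154 after quantile normalization. Leaving out 1 array gave 337 (without day 0 array B) to 1564 at day 1, 1643 (without day 0 array B) to 3131 at day 7, 403 (without day 3 array A) to 1250 (without day 7 array B) late against early, and 4248 to 5863 on the C arrays. For the focal adhesion list the day 1 count of 9 became 17 scaled, 15 after quantile normalization, 3 with signs turned, and 2 to 7 without 1 array, and the day 7 count of 13 became 5 with signs turned and 6 to 12 without 1 array. For the actin bundle list the day 1 count of 2 became 7 scaled, 7 after quantile normalization, 7 against the reference channel, 6 without the late C arrays, 5 with the replicate block and 0 to 2 without 1 array, and the day 7 count of 6 became 2 with signs turned and 1 to 5 without 1 array. For the assembly list the day 1 count of 3 became 9 scaled, 9 after quantile normalization, 1 with signs turned, 6 without the late C arrays and 2 to 4 without 1 array, and the day 7 count of 7 became 0 with signs turned and 3 to 7 without 1 array. The causes were not tested. With the replicate block 1572 units were called late against early, and Tagln2, at -0.80, no longer passed on the C arrays. The block changed no other member's side of the threshold there, and at day 1 it put 6 members past the threshold in place of 5, Actb being the sixth. Deviations of same-letter arrays from their day means correlated at 0.223 to 0.461 within days 1 to 3 and 0.142 to 0.926 within days 4 to 7, over 0.1 in all 27 pairs, but only 4 of 21 pairs with day 0 and 21 of 36 between early and late days were over 0.1. The letters were therefore not taken to pair day 0 or early with later arrays. The alternatives on the actin lists and their genes, on cell markers and on both complete Actb features were chosen after seeing the data. With 3 arrays a day, the median standard error was 0.312 at day 1, and values at dim spots could not be weighed because no signal or background was used here.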
